A study of Mus musculus with 4 samples.

Results

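Nuclear-encoded genes of the mitochondrial respiratory chain were followed in mouse blood mononuclear cells before and during cerulein-induced acute pancreatitis. They were taken by name, as every gene in the count matrices whose symbol begins with Ndufa, Ndufb, Ndufc, Ndufs, Ndufv, Sdha to Sdhd, Uqcr, Cox4 to Cox8 or Atp5. The rule took 98 of 16152 names, of which 37 belong to complex I, 4 to complex II, 9 to complex III, 18 to complex IV and 16 to complex V. The other 14 are assembly factors or regulators whose names begin in the same way, such as Ndufaf7, Sdhaf1 and the ATP synthase inhibitor Atp5if1.

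The animals were wild-type C57BL/6J mice aged 6 to 8 weeks, and each library came from peripheral blood mononuclear cells separated on a Ficoll gradient and run on the droplet-based 10x 5′ assay. Pancreatitis was brought on by 7 intraperitoneal injections of cerulein, a cholecystokinin analogue that overstimulates pancreatic acinar cells, at a dose that the series' design text gives as 60 mg/kg, a unit that could not be checked and may be a slip. The control library was labelled 0 h, and the other 3 were labelled 12 h and 24 h (initial phase) and 96 h (recovery), for which the design text gives 168 h. The labels do not say what the control animals received or how many animals were pooled for a library. Each time had 1 library, so no difference between times could be tested, no p-value is given, and the 95% intervals below cover counting error only.

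The respiratory chain passes electrons from NADH (complex I) and succinate (complex II) through ubiquinone to complex III, then through cytochrome c to complex IV, where oxygen is reduced. Complexes I, III and IV pump protons across the inner mitochondrial membrane, and complex V, the ATP synthase, uses the gradient to make ATP. Complex II is encoded wholly in the nucleus and is also an enzyme of the tricarboxylic acid cycle, whereas the other complexes combine nuclear-encoded subunits with a few subunits encoded in mitochondrial DNA. In leukocytes, resting lymphocytes are known to lean on oxidative phosphorylation, while activation of lymphocytes and monocytes is accompanied by changes in both glycolysis and mitochondrial content.

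The 4 libraries held 60515205 to 79516878 unique molecular identifiers (UMIs) with a median of 3571 to 4861.5 per deposited cell, and 10464 to 12929 cells per library were kept. Cells were assigned to lineages by marker genes, and a gate (the set of cells assigned to a lineage) needed at least 2 distinct markers and at least 50 cells in a library to be compared. The classical monocyte gate held 284, 533, 910 and 348 cells at 0, 12, 24 and 96 h, and the NK gate 305, 662, 335 and 455, whereas the B, T and nonclassical monocyte gates held 1024 to 5005. The 5 gates compared were built from the markers that follow, so these levels describe the gating and do not test it. Cd79b stood at 2171 to 2677 CPM (UMI counts of a gene over the gate's total, on the usual per-1000000 scale) in the B gate and at 10.2 to 25.6 in the T gate. Cd3e stood at 639 to 745 in the T gate and Nkg7 at 3411 to 3592 in the NK gate. Fn1 stood at 2430 to 3860 in the classical monocyte gate, against 192 to 628 in the nonclassical gate and 19.3 to 62.8 in the lymphocyte gates. Spn stood at 850 to 1168 in the nonclassical gate, against 66.1 to 190 in the classical gate and 317 to 414 in the NK gate. Several usual markers, among them Cd79a, Ccr2 and Ly6c2, were not among the names in the files, so classical monocytes rest on Fn1, Vcan and F13a1 beside the monocyte markers. Cells that met the rules of 2 or more lineages (13.3% to 16.5% of a library) were left out, and dendritic and plasma cells were too few to compare. The gate set up for neutrophils carried markers of both kinds at 12 h. Its 73 cells had 1416 CPM of the neutrophil list, against 252 in the 12 h classical monocyte gate, and S100a8 was at 45026 CPM against 17148. They also had 2821 CPM of the classical monocyte list, against 3436 in that gate, with Fn1 at 1953 CPM against 2430. The gate set up for neutrophils held only 14 control cells, so its member levels were not read.

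Part of the gene names follow rat usage, with 28 names starting RT1- and none (0) starting H2-, while the species label is mouse and mm10 is named in the submitters' processing notes. How a mismatch between reads and reference would alter the count of a single gene was not tested. Levels of different genes were therefore not compared with each other. The barcode lists do not name the matrix columns in 2 libraries (4340 barcodes for 14569 control columns, and at 24 h the 11663 barcodes of the 12 h library for 12588 columns), so barcodes were set aside. Between libraries, 0 pairs of cells had identical counts.

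Of the 98 members, 76 passed the level filter (at least 20 CPM in the control and pancreatitis libraries together, and at least 50 UMIs over both) in all 15 comparisons of a gate and time with control. A further 4 passed in some, namely Ndufc1 in 3, Ndufaf7 in 6, Ndufaf4 in 9 and Ndufaf3 in 13. The filter was never passed by 18. These included the tissue-restricted isoforms Cox4i2, Cox6a2, Cox6b2, Cox7a1 and Ndufa4l2 and the assembly factors Ndufaf1, Ndufaf2, Ndufaf5, Ndufaf6, Sdhaf3, Sdhaf4 and Atp5s. The rest were core names that the files list at low levels (Ndufs1, Ndufs6, Atp5pb) or beside a second copy of the name (Uqcrb, Ndufv3, Cox6b1.1). Uqcrb, for example, was at 7.92 CPM over the cells of the 5 gates while its repeat, Uqcrb.1, was at 205.5, and reads of such pairs may be split between the copies.

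In the control library the members together made up 15118 CPM of the B gate, 17315 CPM of the T gate, 19726 CPM of the NK gate, 19932 CPM of the classical monocyte gate and 19836 CPM of the nonclassical monocyte gate. B cells were thus lowest and T cells next, while NK cells and both kinds of monocyte lay close together. The order of B below T below the other gates held in the 12, 24 and 96 h libraries too, although T and NK were close at 12 h (20472 and 20585 CPM). Since 1 library stands for each time, the spread between animals behind this order is unknown. Fewer mitochondrial transcripts per cell and more of other RNA cannot be told apart in such shares. Complex II separated the gates in the same libraries, with 282 CPM in B and 288 in T against 409 in NK, 452 in classical and 458 in nonclassical monocytes.

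**Figure D1:**
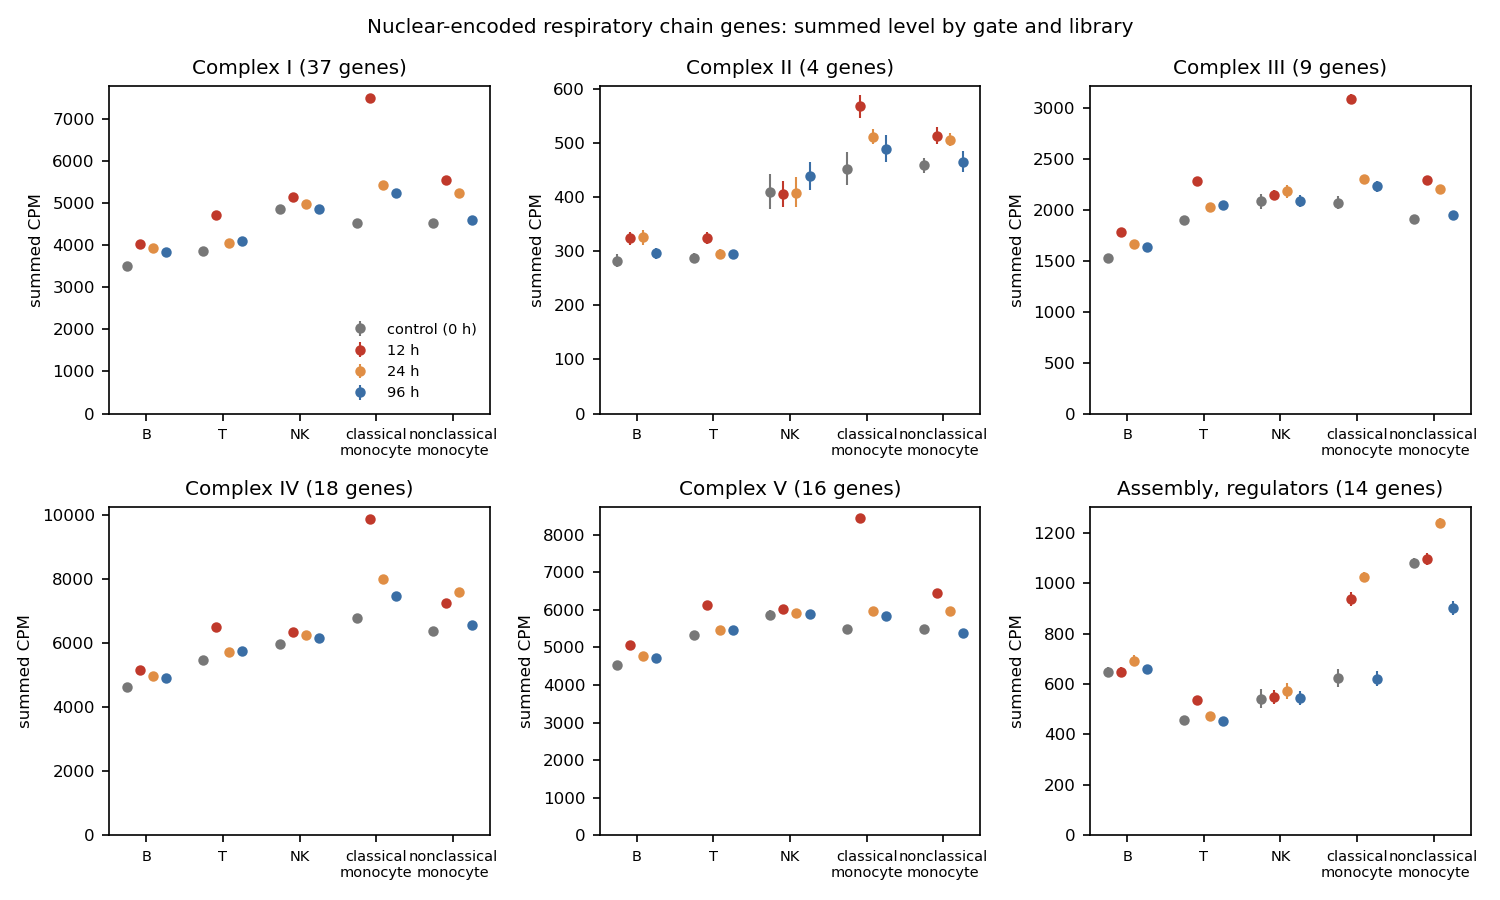
Summed level of the members of each complex (y axis, CPM of a gate, from 0) in 5 marker gates (x axis), with 1 point per library (grey control, red 12 h, orange 24 h, blue 96 h) and bars for the exact 95% Poisson interval. The 12 h point of the classical monocyte gate stands above every other point in complexes I to V, and in the assembly panel the 24 h point of that gate stands above its 12 h point.

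Among the 78 members with a pooled level of at least 20 CPM over the cells of the 5 gates, the geometric mean over the 4 libraries was highest in the classical monocyte gate for 42, in NK for 21, in nonclassical monocytes for 12, in T for 3 and in B for 0. It was lowest in B for 52. The ratio of the highest to the lowest gate had a median of 1.57 over these members, and 10 reached 2-fold. The same order and ratio are not given over all features, so whether these counts are particular to the members is unknown. Small ratios belonged to Sdha, the flavoprotein of complex II that oxidises succinate (1.16), to Atp5f1b, the catalytic beta subunit of the ATP synthase (1.20), and to Cox7a2l (1.29).

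Ndufa4, a small complex IV subunit once assigned to complex I, went against the general order. In the T gate it was at 403, 491, 463 and 449 CPM at 0, 12, 24 and 96 h, and in the B gate at 354, 448, 392.3 and 420 CPM. In the NK gate it was at 84.3, 88.6, 84.7 and 111 CPM, the lowest of the 5 gates in every library, with classical monocytes at 160 to 223 CPM. The T and NK values did not overlap across libraries, and the ratio of the geometric means was 4.92, the widest of any complex IV member past the level filter.

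Cox5a, a nuclear-encoded subunit that clasps the core of complex IV, had the opposite arrangement. Classical monocytes held 589, 892, 791 and 694 CPM at 0, 12, 24 and 96 h, nonclassical monocytes 401, 493, 534 and 427 CPM, and B cells 205, 232, 244 and 231 CPM. Classical monocytes were above nonclassical monocytes, and both were above the lymphocyte gates, in each of the 4 libraries. Its partner subunit Cox5b spread less, from 342 CPM in B to 616 in classical monocytes as geometric means.

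In complex II the iron-sulfur subunit Sdhb was the member that differed most. It was at 198, 252, 244 and 231 CPM in classical monocytes and at 74.8, 84.1, 84.6 and 78.4 CPM in B cells at 0, 12, 24 and 96 h, while nonclassical monocytes stayed between 190 and 226 CPM. The membrane subunit Sdhc was instead highest in NK, with geometric means of 125 CPM there and 73.6 to 83.7 in the other gates. Sdhd, the other membrane subunit, was at 87.1 CPM in B and 130 in classical monocytes.

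In complex I the member that differed most was Ndufa12, an accessory subunit, at 113 to 130 CPM in NK and 49.4 to 59.0 CPM in B over the 4 libraries. In complex III it was Uqcr10, a small subunit of the complex, with 235 to 362 CPM in nonclassical monocytes and 124 to 163 CPM in B. Uqcrh, the hinge protein of complex III, was highest in T and lowest in nonclassical monocytes, with geometric means of 890 and 505 CPM. In complex V it was Atp5mf, a membrane-sector subunit, at 466 to 528 CPM in NK and 235 to 303 CPM in B.

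The assembly factors held the widest contrasts. Ndufaf7, a methyltransferase that acts on a complex I subunit during assembly, was at 103, 91.3, 218 and 132 CPM in classical monocytes and at 84.6, 58.9, 149 and 87.4 CPM in nonclassical monocytes at 0, 12, 24 and 96 h. In NK it was at 7.97, 14.6, 11.5 and 7.63 CPM, resting on 12 to 42 UMIs, and in T at 7.94 to 13.4 CPM, so the monocyte and lymphocyte values did not overlap. Sdhaf1, which helps to place iron-sulfur clusters in Sdhb, was at 555, 520, 641 and 403 CPM in nonclassical monocytes and at 62.6 to 79.4 CPM in NK. Classical monocytes were at 153, 218, 396 and 115 CPM, below nonclassical monocytes in each library.

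**Figure D2:**
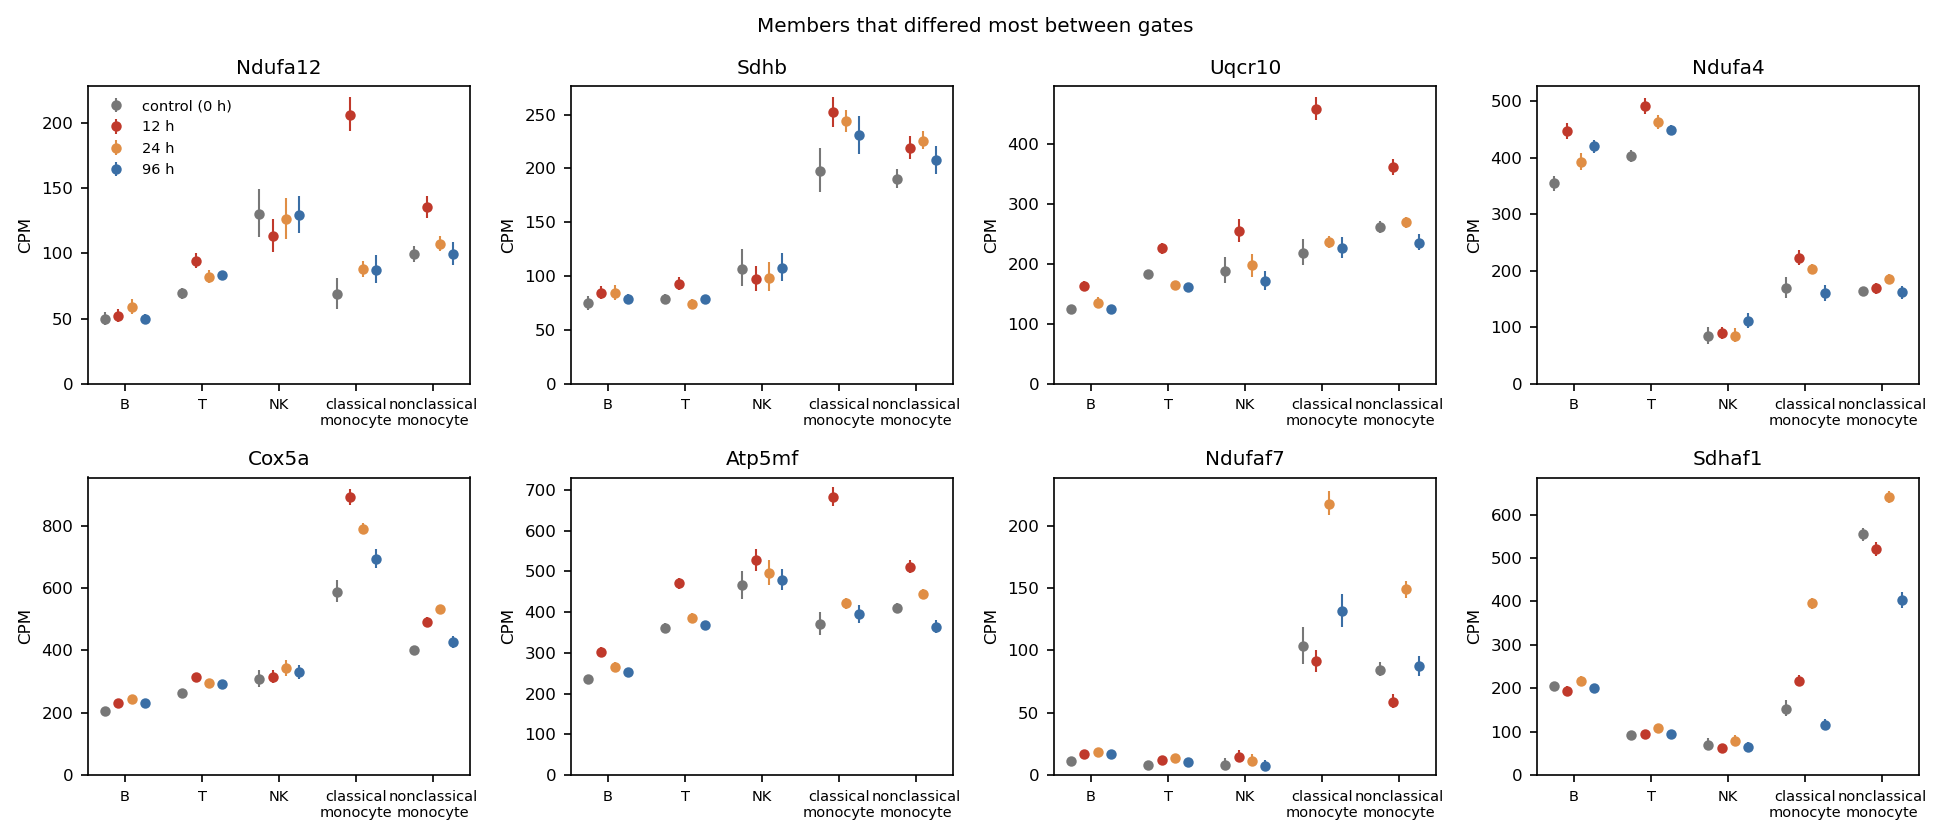
Level (y axis, CPM of a gate, from 0) of 8 members chosen for display, in the 5 gates (x axis). Each library is 1 point coloured by time, with exact 95% Poisson intervals. The choice is not a ranking of all members by their difference between gates. Ndufa4 is high in B and T and low in NK in all 4 libraries, and Ndufaf7 lies at 58.9 CPM or more in both monocyte gates and at 18.1 or less in the lymphocyte gates.

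The members lay farthest from control in classical monocytes at 12 h. The members summed to 19932 CPM in the control library and to 30403, 23238 and 21882 CPM at 12, 24 and 96 h. The 12 h level was 1.53 times the control level (95% interval 1.51 to 1.54), the 24 h level 1.17 times (1.15 to 1.18) and the 96 h level 1.10 times (1.08 to 1.11). At 12 h the ratio of the summed level was 1.24 in monocytes that could not be split, 1.17 in nonclassical monocytes, 1.18 in T, 1.12 in B and 1.04 in NK.

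Gene by gene, 79 members passed the level filter in classical monocytes at 12 h. Of these, 51 lay above control by 1.5-fold or more, 1 lay below by as much and 75 had a ratio above 1, with a median ratio of 1.66. Over all 4347 features tested in that gate, 19.0% lay above control by 1.5-fold or more and 8.67% below, and the median feature was 0.12 higher on the log2 scale. Scaled by the median of ratios in place of the UMI total, the ratio of the sums was 1.41, with 40 members higher and 1 lower. The highest of the 4 libraries was 12 h for 68 of these members and the lowest was control for 61. This order is not given over all features, so how much of it is general to the gate is unknown. The filter was passed by Ndufc1 through its 12 h level alone, so that this member had to come out higher. With cells of 3000 to 10000 UMIs only, 20 members were higher and 3 lower of 78, values that are set out with the depths of the cells. The share of all features is not given for this setting or for median-of-ratios scaling. In cells of 4000 to 8000 UMIs, 20 of 78 members and 22.9% of all features were at least 1.5-fold higher.

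**Figure D3:**
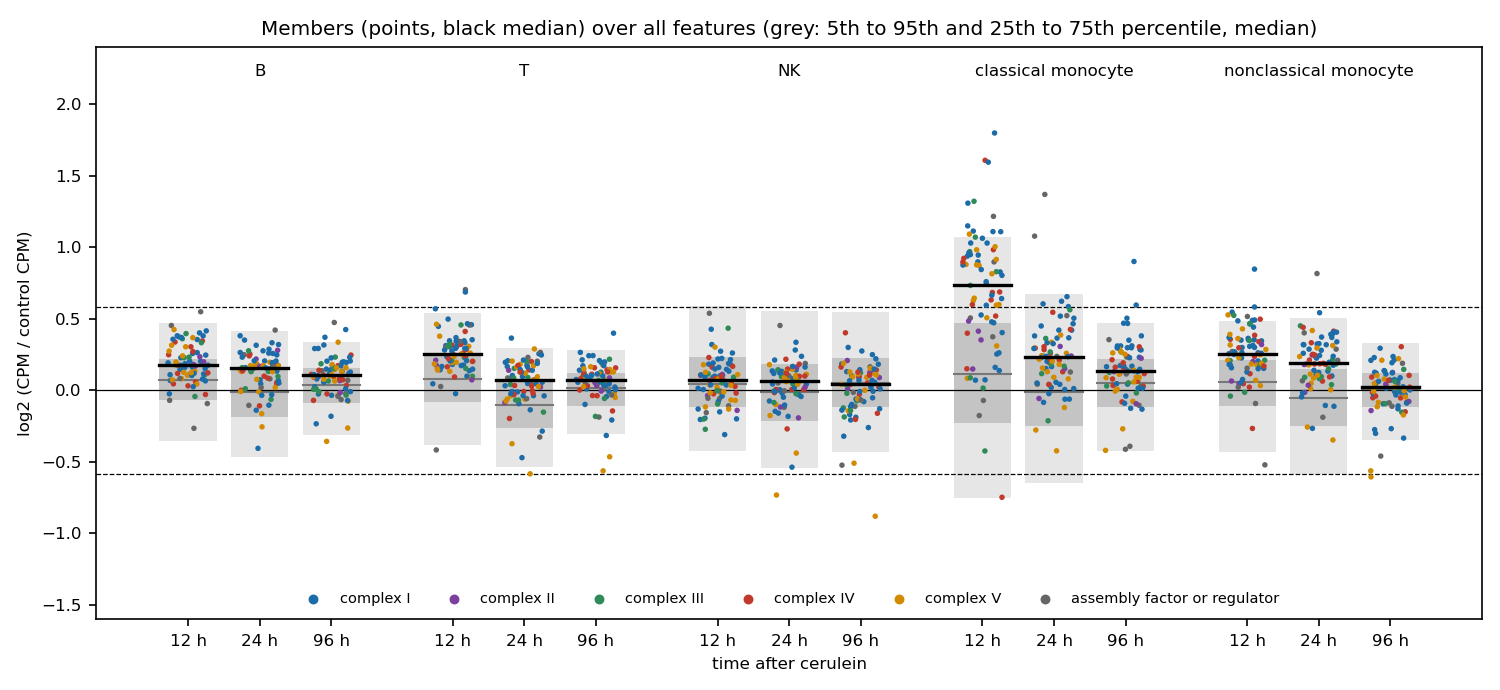
Log2 ratio to control (y axis) of every member past the level filter (points, coloured by complex, black bar for their median) in 5 gates at 12, 24 and 96 h (x axis), over the distribution of all features tested (grey boxes for the 5th to 95th and 25th to 75th percentile, grey line for the median). Dashed lines mark 1.5-fold. The members' median lies above the 75th percentile of all features in classical monocytes, nonclassical monocytes and T at 12 and 24 h and in B at 24 h, by most in classical monocytes at 12 h (0.73 against 0.47).

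Complex I had the most members past 1.5-fold, 24 of 34, with a median ratio of 1.78 and none lower. Ndufc1, an accessory subunit of its membrane arm, was at 12.1 CPM in the control (23 UMIs) and at 42.2, 15.4 and 17.1 CPM at 12, 24 and 96 h, a 12 h ratio of 3.48 (2.26 to 5.61). Ndufa12 went from 68.5 CPM in the control to 207 CPM at 12 h (ratio 3.02, 2.51 to 3.65) and was at 88.2 and 87.3 CPM at 24 and 96 h. Ndufa11, also in the membrane arm, was at 108, 267, 164 and 133 CPM in the same order. In Ndufa12 and Ndufa11 the 12 h library stood apart from the other 3 libraries. Ndufc1, counted among the 24, passed the filter through its 12 h level alone, so its ratio had to come out high. At the other end, Ndufa10l1.1 was at 53.7, 56.4, 51.4 and 49.0 CPM, a 12 h ratio of 1.05 (0.83 to 1.33).

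Complex II differed least of the 5 complexes in this gate. None of its 4 subunits was 1.5-fold higher, too few genes to set that count apart from the 19.0% of all features. The median ratio was 1.30 and the sum went from 452 to 567 CPM (ratio 1.25). Sdhc, which anchors the complex in the membrane, was at 72.7, 102, 80.7 and 78.9 CPM at 0, 12, 24 and 96 h (12 h ratio 1.40, 1.16 to 1.70). Sdhd, the other membrane anchor, was at 130, 144, 125 and 122 CPM, and its 12 h interval (0.96 to 1.29) includes no change.

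Complex III was split. Uqcrq, a small subunit next to cytochrome b, was at 229, 571, 294 and 233 CPM at 0, 12, 24 and 96 h (12 h ratio 2.50, 2.26 to 2.77), and 5 of 8 members were at least 1.5-fold higher. Uqcrc2, a core protein of the complex, was at 178, 133, 154 and 182 CPM (12 h ratio 0.75, 0.65 to 0.85), lower at 12 h than in each other library. Its partner core protein Uqcrc1 was instead higher, from 110 to 195 CPM (ratio 1.78). Uqcrh and Uqcrfs1, the Rieske iron-sulfur protein, had ratios of 1.01 and 1.06.

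Complex IV held the single member below the lower 1.5-fold line and, in Cox7b, the largest ratio outside complex I. Cox7b, a small membrane subunit, was at 241, 734, 351 and 297 CPM at 0, 12, 24 and 96 h (12 h ratio 3.05, 2.76 to 3.37). Cox7a2l, known for joining complexes III and IV into supercomplexes, was at 825, 491, 849 and 921 CPM (12 h ratio 0.60, 0.56 to 0.63), and its 12 h level lay below every other library. The name Cox7a2l2 had the opposite pattern, at 287, 567, 333 and 303 CPM (ratio 1.98), and reads of Cox7a2l and Cox7a2l2 may be split by how the reference names near-identical copies. Altogether 8 of 12 members were at least 1.5-fold higher. Cox4i1, the ubiquitous form of subunit 4, had a ratio of 1.11 (1348 to 1496 CPM), and Ndufa4 a ratio of 1.32. Cox6a1 and Cox6b1, the forms of their subunits found in most tissues, were at 427 and 477 CPM in the control and at 795 and 767 CPM at 12 h, ratios of 1.86 and 1.61. The heart, muscle or testis forms Cox6a2 and Cox7a1 and the lung form Cox4i2 were at 0.29, 0.26 and 0.02 CPM over the cells of the 5 gates, and Cox6b2, the testis form, reached 7.81 CPM in NK as a geometric mean.

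Complex V had 12 of 15 members at least 1.5-fold higher and none lower, with a median ratio of 1.76. The 3 genes for the proton-carrying ring subunit c did not share 1 pattern. Atp5mc3 was at 144, 306, 170 and 158 CPM at 0, 12, 24 and 96 h (12 h ratio 2.13, 1.87 to 2.43) and Atp5mc1 at 182 and 364 CPM at 0 and 12 h (ratio 2.005). Atp5mc2 was at 657, 697, 732 and 803 CPM, a ratio of 1.06 (0.99 to 1.13) at 12 h. The catalytic subunits Atp5f1b and Atp5f1a had ratios of 1.83 and 1.42.

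Among the assembly factors and regulators, 2 of 6 were at least 1.5-fold higher, too few genes to set the group apart from the 19.0% of all features. These were Ndufaf8, a complex I assembly factor (26.9, 62.4, 29.4 and 20.5 CPM at 0, 12, 24 and 96 h, 12 h ratio 2.32, 1.72 to 3.19), and Atp5if1, which blocks ATP hydrolysis by complex V (249, 464, 294 and 270 CPM, ratio 1.86). Ndufaf7 had a 12 h ratio of 0.88 (0.75 to 1.05).

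**Figure D4:**
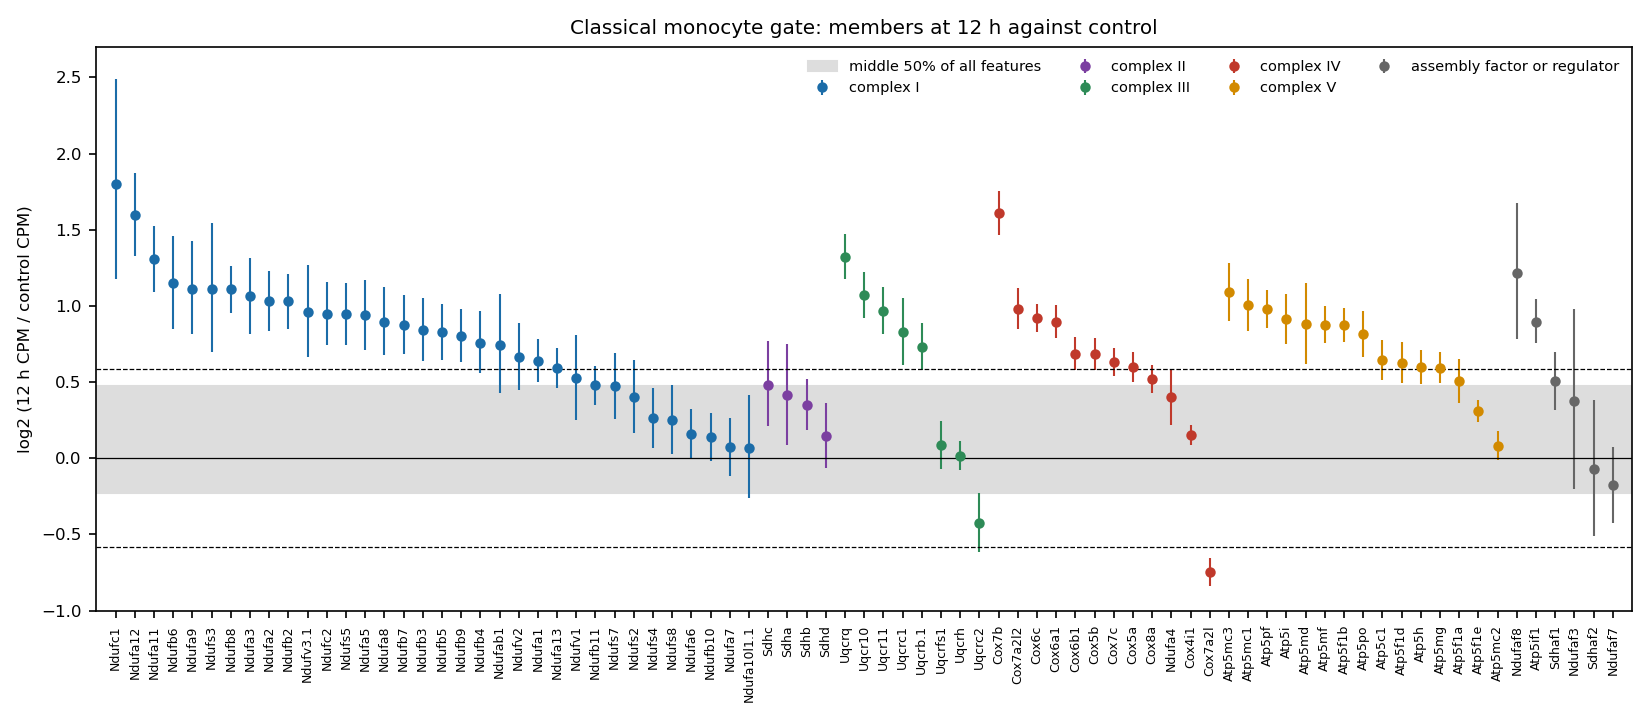
Log2 ratio of the 12 h to the control level (y axis) for each of the 79 members past the level filter in the classical monocyte gate (x axis, grouped and coloured by complex), with exact conditional 95% intervals for counting error. The grey band holds the middle 50% of all features, dashed lines mark 1.5-fold, and Cox7a2l lies alone below the lower line.

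Promoter sequence was read for the members from RefSeq (GRCm38.p6), since so many of them were higher together in 1 gate. Windows of 250 bases before to 50 after the start matched 77 of the 98 members, 65 by symbol and 12 by synonym, on the assumption that the labels' species is right. Searched on both strands were the palindromic core of NRF1 (its letters are the capitals in the Ndufa11 sequence), CCGGAAG for GABP and other ETS factors, AAGATGGCG for YY1, GGGCGG for SP1 and TATAAA for the TATA box. The GABP and YY1 letters can overlap by AAG. NRF1 and GABP are known regulators of respiratory chain genes. NRF1 letters were in 9.09% of members' windows and 1.07% of those of 27025 genes, GABP letters in 28.6% and 9.93%, YY1 letters in 10.4% and 1.64%, SP1 letters in 48.1% and 38.2%, and TATAAA in 9.09% and 15.7%. A match describes letters and is not a site of binding.

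Whether the letters go with the 12 h ratio was not tested. In classical monocytes the 28 measured members with an NRF1, GABP or YY1 match had a median ratio of 1.69 (17 at least 1.5-fold higher), and the 37 without had a median of 1.61 (26 higher). Shown are the 250 bases before the start for the member with the largest 12 h ratio among those with an NRF1 match there (Ndufa11, chr17:56717512-56717761, plus strand), the same for GABP (Ndufaf8, chr11:120098684-120098933, plus strand), and the member with the smallest ratio of all (Cox7a2l, chr17:83514334-83514583, minus strand). Capitals mark matches to the letters above, which are NRF1 in Ndufa11, SP1 and GABP in Ndufaf8 and SP1 in Cox7a2l.
Ndufa11: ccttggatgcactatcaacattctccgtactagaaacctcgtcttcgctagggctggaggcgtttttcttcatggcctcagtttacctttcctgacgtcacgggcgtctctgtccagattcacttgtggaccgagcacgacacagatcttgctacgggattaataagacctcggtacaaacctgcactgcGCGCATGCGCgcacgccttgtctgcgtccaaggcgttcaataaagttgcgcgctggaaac
Ndufaf8: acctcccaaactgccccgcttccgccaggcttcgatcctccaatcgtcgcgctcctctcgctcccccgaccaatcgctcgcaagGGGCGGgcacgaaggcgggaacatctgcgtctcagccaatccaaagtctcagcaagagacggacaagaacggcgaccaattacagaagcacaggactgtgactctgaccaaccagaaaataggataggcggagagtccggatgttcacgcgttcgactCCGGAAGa
Cox7a2l: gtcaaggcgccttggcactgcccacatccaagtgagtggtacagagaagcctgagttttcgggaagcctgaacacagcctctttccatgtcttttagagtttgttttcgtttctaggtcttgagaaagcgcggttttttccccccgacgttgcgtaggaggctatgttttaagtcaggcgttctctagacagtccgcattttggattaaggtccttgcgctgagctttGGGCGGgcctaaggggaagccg

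The size of the 12 h difference varied with the number of UMIs per cell, without a steady order. In classical monocytes under 4000 UMIs the ratio of the sums was 1.27 (100 cells at 12 h and 42 in the control), and 22 of 60 members were at least 1.5-fold higher where 19.5% of all features were. In classical monocytes with 4000 to 8000 UMIs the members summed to 19691 CPM in the control (160 cells) and to 23672 CPM at 12 h (195 cells), a ratio of 1.20, and 20 of 78 members were at least 1.5-fold higher where 22.9% of all features were. In cells with 8000 to 16000 UMIs the sums were 20571 CPM (82 cells) and 30588 CPM (158 cells), a ratio of 1.49, and 47 of 79 members were higher against 17.6% of all features. Cells with 16000 or more UMIs numbered 80 at 12 h, with a summed level of 36275 CPM, and no such group of at least 20 cells was found in the control. With only cells of 3000 to 10000 UMIs, the ratio of the sums was 1.20 and 23 of 78 members passed 1.5-fold in either direction, in place of 52. The share of all features is not given for that setting.

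Other values were also higher in the 12 h classical monocytes. The dividing-cell list summed to 338 CPM at 12 h against 13.2, 22.5 and 30.6 CPM at 0, 24 and 96 h, with 0 of its 9 genes at 0 UMIs. Cells with a UMI of Mki67 or Top2a were 12.2% of the gate at 12 h, with a summed member level of 35637 CPM against 28925 CPM in the other cells, and without them the ratio to control was 1.45 with 47 members past 1.5-fold. The neutrophil marker list summed to 252 CPM against 107 in the control (1 and 6 of its 9 measured genes at 0) and S100a8 was at 17148 CPM against 399, and without cells holding a neutrophil marker the ratio was 1.46 with 46 members past 1.5-fold. S100a8 was higher at 12 h in the other gates too, from 7.87 to 659 CPM in B, 4.82 to 362 in T, 2.66 to 560 in NK and 29.0 to 1914 in nonclassical monocytes. A neutrophil marker UMI was found at 12 h in 208 of 2556 B cells, 155 of 1699 T cells and 181 of 533 classical monocytes. The median depths of these gates were 2917, 5579 and 6539 UMIs. In the control, 24 of 284 classical monocytes held such a UMI. The 12 h classical monocytes with such a UMI had a summed member level of 32023 CPM, and those without had 29035 CPM. Whether such a UMI marks a neutrophil was not tested. The platelet list was at 203 CPM against 112. The share of all features past 1.5-fold is not given for the gate without dividing cells or without neutrophil-marker cells. The part of depth per cell, dividing cells, neutrophil RNA and platelet RNA in the difference was not tested beyond these values.

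**Figure D5:**
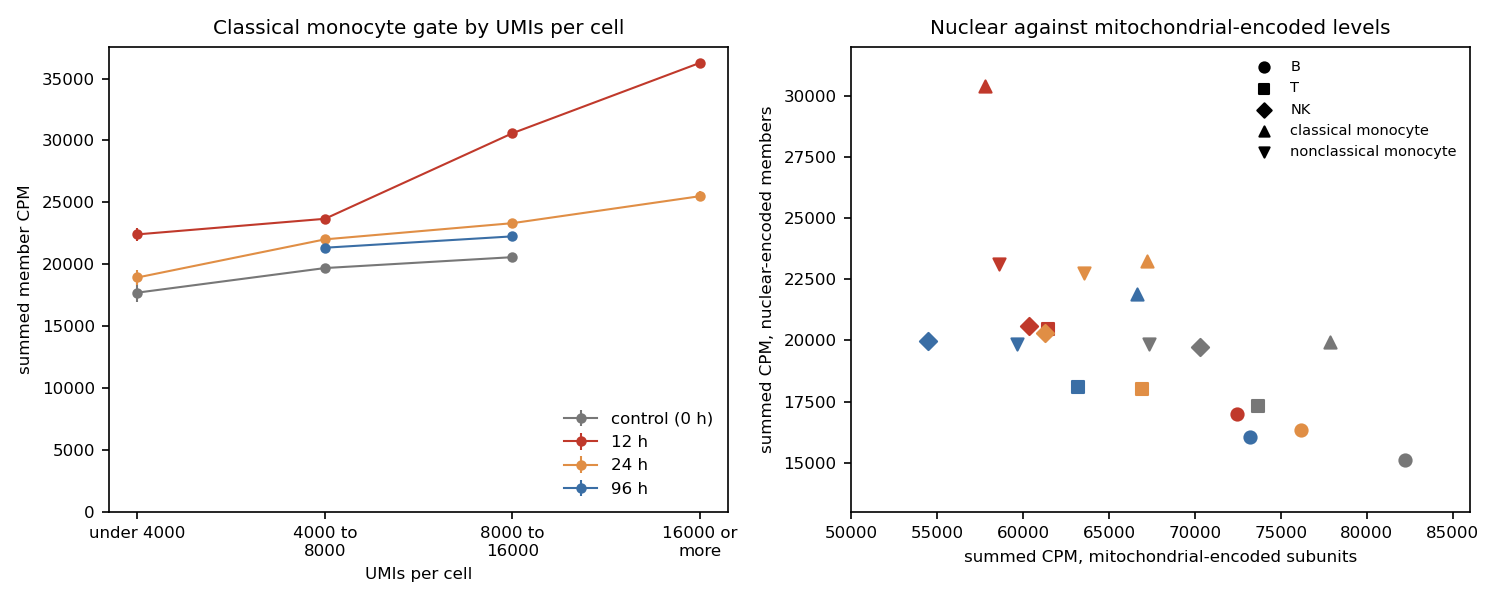
Left, summed member level (y axis, CPM, from 0) in classical monocytes grouped by UMIs per cell (x axis), 1 line per library, for groups of at least 20 cells, with exact 95% Poisson intervals. Right, summed level of the nuclear-encoded members (y axis, CPM, not from 0) against that of the subunits encoded in mitochondrial DNA (x axis, CPM, not from 0), 1 point per gate (shape) and library (colour), where the 12 h classical monocytes lie at 30403 and 57792 CPM.

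At 24 h the classical monocyte members lay above control by less than at 12 h, with 69 of 78 ratios above 1. Their median was 0.23 on the log2 scale, where the median feature was at -0.01 and the 75th percentile of all features at 0.22. Few passed 1.5-fold. Of 78 members, 5 were at least 1.5-fold higher and 0 lower, where 6.7% and 6.56% of all features were higher and lower. The largest ratio belonged to Sdhaf1, at 153, 218, 396 and 115 CPM at 0, 12, 24 and 96 h (24 h ratio 2.58, 2.29 to 2.92), and the next to Ndufaf7 (2.11, 1.82 to 2.46), so both peaked at 24 h and not at 12 h. The other 3 were the complex I genes Ndufb9 (1.57), Ndufs3 (1.54) and Ndufa11 (1.52). At 96 h, 2 of 77 members were higher, Ndufs3 (1.87) and Ndufb8 (1.51), and 0 lower, against 2.45% and 2.19% of all features.

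Nonclassical monocytes lay closer to control. The members summed to 19836, 23126, 22767 and 19851 CPM at 0, 12, 24 and 96 h, so the 12 and 24 h levels were 1.17 and 1.15 times control and the 96 h level was 1.001 times (0.993 to 1.008). At 12 h, 74 of 79 members had a ratio above 1, where the median feature was 0.06 higher on the log2 scale. Only Ndufa3, a small complex I subunit, was 1.5-fold higher (66.0 to 119 CPM, ratio 1.80, 1.63 to 1.99), and 0 were lower, against 2.87% and 2.69% of all features. At 24 h only Ndufaf7 was higher (84.6 to 149 CPM, ratio 1.76) and 0 were lower, against 3.69% and 5.07%. At 96 h 0 were higher and only Atp5md, a small subunit of the ATP synthase membrane sector, was lower (87.2 to 57.3 CPM, ratio 0.66, 0.57 to 0.75), against 1.31% and 1.09%. Sdhaf1 was at 403 CPM at 96 h, below the 520 to 641 CPM of the other libraries (ratio 0.73). By complex, the 12 h extremes were Ndufa7 (1.04) and Ndufa3 in complex I, Sdha (1.03) and Sdhc (1.25) in II, Uqcrc2 (0.97) and Uqcrq (1.44) in III, Cox7a2l (0.83) and Cox7b (1.41) in IV, Atp5mc2 (1.02) and Atp5i (1.44) in V, and Ndufaf7 (0.70) and Sdhaf2 (1.43) among the assembly factors. Sdhc, Uqcrc2, Uqcrq, Cox7a2l, Cox7b, Atp5mc2 and Ndufaf7 held the same ends of their groups as in classical monocytes. Other members held both ends of complex I, the lower end of complex II and the upper ends of complex V and the assembly factors. The control library is shared by all these ratios. Markers of classical monocytes were higher in the same gate, at 200, 478, 712 and 479 CPM for the list and 192, 415, 628 and 452 CPM for Fn1 at 0, 12, 24 and 96 h. The dividing-cell list was at 24.4 CPM in the control and 64.7 CPM at 12 h, and the part of either in the members' levels was not tested. In cells with 8000 to 16000 UMIs the nonclassical ratio of sums was 1.37 and 29 of 76 members were 1.5-fold higher, where 14.3% of all features were.

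In T cells nearly all members were slightly higher at 12 h and, as shares of the UMI total, close to control later. With median-of-ratios scaling the ratio of sums was 1.12 at 12 h and 1.12 at 24 h, so the contrast between these times depended on the scaling. The members summed to 17315, 20472, 18029 and 18110 CPM at 0, 12, 24 and 96 h, and 76 of 78 had a ratio above 1 at 12 h, with a median of 1.19. The median feature was 0.08 higher on the log2 scale at that time. Those past 1.5-fold at 12 h were Ndufb7 of complex I (74.3 to 120 CPM, ratio 1.61) and Sdhaf2, the factor that attaches the flavin to Sdha (23.4 to 38.1 CPM, ratio 1.63), that is 2 of 78 higher and 0 lower against 4.0% and 1.91% of all features. The other 12 h ends were Ndufb4 (0.98) in complex I, Sdhd (1.05) and Sdhb (1.18) in II, Uqcrc2 (1.07) and Uqcrb.1 (1.37) in III, Cox7a2l (1.07) and Cox6b1 (1.33) in IV, Atp5f1e (1.07) and Atp5i (1.38) in V, and Ndufaf4 (0.75) among the assembly factors. At 24 h 0 were higher or lower (background 1.13% and 3.78%, with the median feature at -0.11 on the log2 scale) and at 96 h 0 were higher or lower (0.714% and 0.661%). Cells with a Mki67 or Top2a UMI had higher member levels within each T library, by 1.51, 1.44, 1.28 and 1.43 times at 0, 12, 24 and 96 h. They made up 2.13% of the T gate in the control and 5.12% at 12 h, and without them the 12 h ratio was 1.16. The NK marker list was also higher in the T gate at 12 h, at 358, 663, 386 and 465 CPM at 0, 12, 24 and 96 h, with Nkg7 at 49.95 CPM in the control and 188 CPM at 12 h, and its part in the members' levels was not tested. The T cells with a Mki67 or Top2a UMI had a median depth of 8261 to 9819.5 UMIs against 4931 to 6402 in the other T cells. In NK the member level of cells with such a UMI was 1.12 to 1.17 times that of the others.

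In B cells, 54 of 78 members were lowest in the control library, an order that is not given over all features. The sums were 15118, 16998, 16360 and 16060 CPM at 0, 12, 24 and 96 h, and no member passed 1.5-fold at any time. That is 0 higher and 0 lower at 12 h against 2.43% and 1.63% of all features, at 24 h against 1.61% and 2.51%, and at 96 h against 0.837% and 0.678%. The range at 12 h ran from 0.83 for Ndufaf4, a complex I assembly factor, to 1.46 for Sdhaf2. By complex the ends were Ndufs4 (0.98) and Ndufb7 (1.33) in I, Sdhb (1.12) and Sdhc (1.18) in II, Uqcrfs1 (0.97) and Uqcr10 (1.32) in III, Cox8a (0.98) and Cox7c (1.27) in IV, and Atp5f1b (1.03) and Atp5i (1.34) in V.

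In NK cells the sums lay close to control. They were 19726, 20585, 20294 and 19972 CPM at 0, 12, 24 and 96 h, and the 96 h ratio (1.01, 0.998 to 1.03) has an interval that includes 1. At 12 h 0 of 79 members were higher or lower, against 5.2% and 2.14% of all features. The 12 h ends were Ndufa5 (0.81) and Ndufs3 (1.34) in complex I, Sdhb (0.91) and Sdhc (1.08) in II, Uqcrc2 (0.83) and Uqcr10 (1.35) in III, Cox8a (0.98) and Cox6a1 (1.17) in IV, Atp5md (0.91) and Atp5i (1.23) in V, and Sdhaf1 (0.90) and Sdhaf2 (1.45) among the assembly factors. At 24 h 0 were higher and 1 lower against 4.37% and 3.76%, and at 96 h 0 higher and 1 lower against 4.24% and 2.13%. The lower member was Atp5md both times, at 109, 99.4, 65.5 and 59.1 CPM at 0, 12, 24 and 96 h (ratios 0.60 and 0.54). In T cells the ratio of Atp5md was 0.67 at 24 h and 0.68 at 96 h, just inside the 1.5-fold line. Atp5md was below control at 24 and 96 h in all 5 gates.

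The 13 subunits encoded in mitochondrial DNA lay on the other side of control from the nuclear-encoded members. In classical monocytes they summed to 77844, 57792, 67213 and 66643 CPM at 0, 12, 24 and 96 h, a 12 h ratio of 0.74 (0.74 to 0.75), and in the other 4 gates the 12 h ratios were 0.83 (T), 0.86 (NK), 0.87 (nonclassical) and 0.88 (B). The control level was the highest of the 4 libraries in all 5 gates. Cells were chosen partly on their share of mitochondrial UMIs, by the authors before deposit and again here, so this sum is bounded by the cell filter. In single genes, 0 of the 13 were at least 1.5-fold higher and 2 were lower in classical monocytes at 12 h, against 19.0% and 8.67% of all features. With so few genes, the count of lower ones does not set the list apart from that share.

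Other mitochondrial genes were read from lists of the same pathway. In classical monocytes at 12 h, 29 of 63 measured mitochondrial ribosomal proteins, which translate the mitochondrial mRNAs, were at least 1.5-fold higher and 0 lower (all features 19.0% and 8.67%, the background for each list here), with a median ratio of 1.47, from Mrpl33 (0.75) to Mrps6 (2.61). At 24 and 96 h, 57 and 55 of them passed the level filter. Some may therefore have passed at 12 h through their 12 h level alone, and such genes had to come out higher. Assembly factors with other names had 4 of 12 higher and 0 lower (median 1.40), and electron carriers and exchangers 4 higher and 1 lower of 13, from Coq10b (0.54) to the flavoprotein subunit Etfb (2.81). Tricarboxylic acid cycle and pyruvate dehydrogenase genes had 5 higher and 1 lower of 11, among them malate dehydrogenase Mdh2 (2.09). Only 4 of 13 regulators of mitochondrial biogenesis passed the filter, with a median of 1.03, and Esrra alone was 1.5-fold higher (1.64), a share near that of all features.

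Of 12 glycolytic genes measured in the same cells, 8 were at least 1.5-fold higher and 1 lower, against 19.0% and 8.67% of all features, with a median of 1.65, from the hexokinase Hk2 (0.66) to the hexokinase Hk3 (18.8). At 24 and 96 h, 10 glycolytic genes passed the level filter. A gene that passes through its 12 h level alone has to come out higher, and whether Hk3 did so is not given. Cytosolic ribosomal proteins, against the same background, had 1 higher and 5 lower of 70, with a median of 0.82. At 24 h the classical monocyte medians were 1.18 for mitochondrial ribosomal proteins and 1.17 for glycolysis, beside 1.17 for the respiratory chain members.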

How the data were processed

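Single-cell 5′ RNA libraries of blood mononuclear cells, 1 per time, were deposited by the authors as matrices of raw UMI counts per gene and cell. Cell Ranger, Seurat and the build mm10 are named in the submitters' processing notes, without versions. The mitochondrial share of the deposited cells ended just under 15.0% in each library.

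The cell filter asked for 200 genes or more and a mitochondrial share of 10% or less, and doublets called per library with Scrublet (scanpy 1.11.5) were removed. Lineage gates came from marker genes. How many markers a cell needed and how ties were settled were set after the data were seen. Members and lists were chosen with earlier results of these data known. UMIs were summed per gate and library, given as CPM with exact 95% Poisson intervals, and ratios with exact conditional 95% intervals, which cover counting error only. The matrix totals were 60515205 to 79516878 UMIs. Only the ratios and their intervals were tried on simulated data, Poisson counts with known folds, which is the counting model that the intervals assume. The cell filter, doublet calls, gates and the spread between libraries were not simulated.

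Members were named by rule: the largest and smallest ratio of each complex at a gate's farthest time, the member of each complex that differed most between lineages, isoform families and Atp5if1. Members outside it (among them Uqcrc1, Uqcrfs1, Uqcrh, Cox5b, Ndufa11, Atp5f1a and Atp5f1b) were chosen after their values were seen. In all 11 planned and 2 added alternatives were tried, and 0 columns were left unmapped. Tools were Python 3.11.15, pandas 2.3.3, matplotlib 3.10.9, scipy 1.17.1, anndata 0.12.19, numpy 2.4.6 and scikit-learn 1.9.0.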

Additional observations from a re-analysis of the deposited data

How the results depend on the processing

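Limits first: each time had 1 library, so every value below covers counting error at most, and low members such as Ndufaf7 in lymphocytes are limited by their UMIs. No paired analysis was possible because each group had 1 library and the labels gave no pairs. Of the alternatives tried, 11 were planned and 2 (mixed cells assigned, and cells with a neutrophil marker left out) were chosen after seeing the data. The classical monocyte ratio at 12 h was above 1 under every alternative that gave a value. Some ratios of sums turned to below 1, all of those named here at 96 h. With at most 5% mitochondrial UMIs these included T and nonclassical monocytes, and with median-of-ratios scaling NK and nonclassical monocytes. Nonclassical monocytes also did so with cells of 3000 to 10000 UMIs and without cells holding a neutrophil marker. For classical monocytes at 12 h, 52 members were past 1.5-fold, and the count was 41 with median-of-ratios scaling and with the reduced total, 40 with the mean over cells, 47 without dividing cells, 46 without neutrophil-marker cells, 48 without assembly factors and repeated names, 54 with 3 markers, 55 with mixed cells assigned and 59 with no level filter. The share of all features past 1.5-fold is not given for the alternatives, so these counts and those below stand without a background. Ratios that moved by more than their interval, and other counts that moved by more than 1.5 times, were these. Without the cell filter, the ratio of sums was nonclassical 1.18 at 12 h and the number of members past 1.5-fold was B 1 at 12 h, nonclassical 2 at 12 h. With at most 5% mitochondrial UMIs, the ratio of sums was T 1.05 at 12 h, 1 at 24 h, 0.94 at 96 h, nonclassical 1.18 at 12 h, 0.98 at 96 h and the number of members past 1.5-fold was T 1 at 12 h, 3 at 24 h, 3 at 96 h, nonclassical 8 at 12 h, 2 at 24 h, 3 at 96 h. With doublets kept, the number of members past 1.5-fold was nonclassical 2 at 12 h. With mitochondrial, ribosomal, haemoglobin and receptor genes left out of the total, the ratio of sums was B 1.10 at 12 h, 1.09 at 24 h, 1.05 at 96 h, T 1.14 at 12 h, 1.09 at 24 h, NK 1.03 at 12 h, classical 1.41 at 12 h, 1.13 at 24 h, 1.08 at 96 h, nonclassical 1.14 at 12 h and the number of members past 1.5-fold was classical 3 at 24 h, 1 at 96 h. With median-of-ratios scaling, the ratio of sums was B 1.07 at 12 h, 1.09 at 24 h, 1.04 at 96 h, T 1.12 at 12 h, 1.12 at 24 h, 1.03 at 96 h, NK 1.01 at 12 h, 0.98 at 96 h, classical 1.41 at 12 h, 1.06 at 96 h, nonclassical 1.12 at 12 h, 1.19 at 24 h and the number of members past 1.5-fold was classical 1 at 96 h, nonclassical 2 at 24 h. With at least 3 markers, the ratio of sums was T 1.04 at 96 h, classical 1.58 at 12 h, nonclassical 1.21 at 12 h, 1.16 at 24 h, 1.01 at 96 h and the number of members past 1.5-fold was T 1 at 24 h, NK 2 at 96 h, classical 3 at 24 h, 1 at 96 h, nonclassical 5 at 12 h, 0 at 96 h. With the mean over cells, the ratio of sums was T 1.16 at 12 h, 1.05 at 24 h, classical 1.39 at 12 h, nonclassical 1.14 at 12 h and the number of members past 1.5-fold was NK 1 at 12 h, 3 at 24 h, classical 4 at 96 h, nonclassical 0 at 96 h. Without dividing cells, the ratio of sums was T 1.16 at 12 h, 1.05 at 24 h, 1.05 at 96 h, NK 1.01 at 24 h, classical 1.45 at 12 h, nonclassical 1.15 at 12 h and the number of members past 1.5-fold was NK 1 at 12 h, 3 at 24 h. With cells of 3000 to 10000 UMIs, the ratio of sums was B 1.10 at 12 h, 1.05 at 24 h, 1.04 at 96 h, T 1.15 at 12 h, NK 1.005 at 24 h, classical 1.20 at 12 h, 1.10 at 24 h, 1.08 at 96 h, nonclassical 1.11 at 12 h, 0.99 at 96 h and the number of members past 1.5-fold was classical 23 at 12 h, 1 at 96 h, nonclassical 3 at 12 h. With no level filter, the number of members past 1.5-fold was B 5 at 12 h, 5 at 24 h, 5 at 96 h, T 7 at 12 h, 5 at 24 h, 6 at 96 h, NK 9 at 12 h, 7 at 24 h, 7 at 96 h, classical 11 at 24 h, 10 at 96 h, nonclassical 13 at 12 h, 9 at 24 h, 7 at 96 h. Without assembly factors and repeated names, the ratio of sums was classical 1.15 at 24 h, nonclassical 1.18 at 12 h, 1.01 at 96 h and the number of members past 1.5-fold was T 1 at 12 h, classical 3 at 24 h, nonclassical 0 at 24 h. With mixed cells assigned to the lineage with most markers, the ratio of sums was T 1.04 at 96 h, NK 1.11 at 12 h, classical 1.57 at 12 h, nonclassical 1.20 at 12 h, 1.01 at 96 h and the number of members past 1.5-fold was NK 2 at 96 h, classical 3 at 24 h, 1 at 96 h, nonclassical 3 at 12 h, 0 at 96 h. Without cells holding a neutrophil marker, the ratio of sums was classical 1.46 at 12 h and the number of members past 1.5-fold was T 1 at 24 h, NK 2 at 96 h, classical 1 at 96 h, nonclassical 2 at 12 h, 0 at 96 h. With at most 5% mitochondrial UMIs, the B, NK and classical monocyte gates gave no value, since 23, 15 and 7 control cells were left. The cause was not tested for any of these differences.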
